A study of Mus musculus with 2 samples.

Results

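Genes of xenobiotic metabolism and targets of the transcription factor NRF2 were examined in the small intestine of mice with an IL-9 transgene, set against wild-type mice. The set was chosen by gene name, and holds 55 genes, among them 17 cytochromes P450, 13 glutathione transferases and 6 NRF2 targets. A probe set of their own name measured 53 of the 55, out of 18194 genes measured in all, while the P450 reductase Por and the aldo-keto reductase Akr1b7 were not analysed here. Probe sets are groups of short probes that target 1 transcript, and the brightest probe set of a gene, averaged over the arrays, stands for it, with its other probe sets as a check.

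The study concerned IL-9, mast cells, intestinal permeability and reactions to antigen taken by mouth. The IL-9Tg pool was made from 3 mice with the transgene, and the WT pool from 3 mice without it. All animals were on the BALB/c background, were 6 to 8 weeks old and had no treatment, and each pool was hybridised to 1 Affymetrix mouse array. The sources used here do not give the promoter that drives the transgene or the segment of intestine taken. With 1 array a group there is no replicate check: the spread between mice is unknown, and no p-value is given.

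Foreign chemicals and many bile acids, steroids and dietary compounds are cleared in steps. Cytochromes P450 of the endoplasmic reticulum oxidise them, transferases then attach glutathione, glucuronic acid or sulfate, and efflux pumps move the products out of the cell. In the small intestine this work is done mostly by the absorptive enterocytes, which meet ingested compounds first. The receptors PXR, CAR and AhR sense foreign ligands and switch on P450 genes, whereas NRF2, which is held down by Keap1 until oxidants or electrophiles modify that protein, switches on glutathione transferases and antioxidant enzymes.

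The values below are intensities on a linear scale, and each difference is IL-9Tg minus WT on the log2(intensity + 1) scale. Pearson correlation of the log2 values over all probe sets was 0.994 between the arrays, a value across probe sets and not across replicates. The central 95% of the 11627 genes whose mean log2 value reached 6.31 (the filter on low values) lay between -0.48 and 0.49. Where 1 gene had several probe sets past this filter, their differences varied with an SD of 0.23, which is a technical spread within these arrays. Il9 read 62.2 in the IL-9Tg pool and 71.6 in the WT pool, from 1 probe set. Both values lie under the intensity of 78.5 that corresponds to the filter, so they cannot show whether Il9 was higher with the transgene. Directions therefore rest on the labels. Of 8 mast cell markers 7 lay above 0, with a summed intensity of 5708 in the IL-9Tg pool and 1163 in the WT pool. The 3′ to 5′ signal ratio of actin, a sign of RNA integrity, was 1.33 in the IL-9Tg pool and 1.61 in the WT pool. All 9 measured enterocyte markers passed the filter, with Apoa1, an apolipoprotein, at 24147 in the IL-9Tg pool and 25799 in the WT pool. Markers of gut segment differed in both directions. Of 6 proximal small intestine markers 4 lay above 0 and 2 below (median 0.11), from -0.57 for Onecut2 to 0.41 for Adh6a. Of 6 distal ones 2 lay above 0, 3 below and 1 at 0 (median -0.02). Of the distal list Fabp6, a bile acid-binding protein, read 13.3 on both arrays, Cubn was 2.05-fold lower in the IL-9Tg pool and Muc3 1.77-fold higher. Of the colon list Car4 was 2.42-fold higher in the IL-9Tg pool and Aqp8 1.66-fold lower. The part of segment in the results was not tested.

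Few genes of the set were 1.5-fold apart between the pools, and the families leaned in opposite directions. Of the 53 measured genes, 3 were at least 1.5-fold higher in the IL-9Tg pool, where 1.23% of all 18194 genes were. Among the 51 past the filter 2 were, where 1.55% of all genes past the filter were. At least 1.5-fold lower was 1 gene, which is past the filter, where 1.07% of all genes and 1.41% of those past the filter were. At 2-fold there was 1 higher gene, Cyp2e1, which is not past the filter, where 0.412% of all genes and 0.525% of those past the filter were, and there were 0 lower genes, where 0.132% and 0.181% were. Differences of at least the technical SD were more frequent. Of the 53, 14 were that much higher, Cyp2e1 among them, where 14.8% of genes past the filter were. Another 13 were that much lower, where 13.9% were. The other 49 genes stayed within 1.5-fold, and the median over the 53 was 0.01, next to 0.01 over all genes past the filter. Of the 53, 51 passed the filter, and the exceptions were Cyp2e1 and Hmox1. The median difference was -0.15 over the 17 P450s, 0.15 over the 13 glutathione transferases and 0.13 over the 6 NRF2 targets. The P450 median was thus lower than the glutathione transferase median by a difference of -0.30, and lower than the NRF2 target median by a difference of -0.28, values that compare with an SD among the P450s of 0.52.

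**Figure D1:**
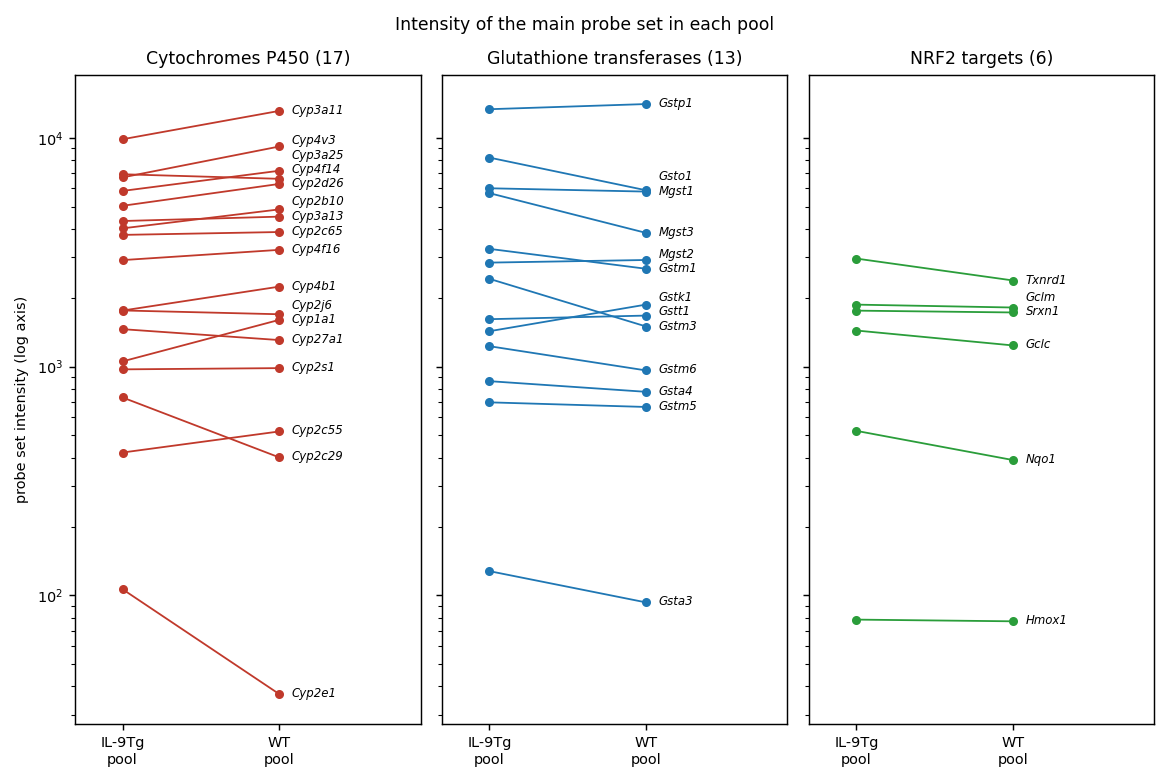
Intensity of the main probe set (log axis) in the IL-9Tg pool, left, and the WT pool, right, for the 17 P450s, the 13 glutathione transferases and the 6 NRF2 targets, with 1 line for each gene. Lines of 12 P450s are lower at the IL-9Tg end, those of Cyp2e1 and Cyp2c29 are clearly higher there, and lines of 9 glutathione transferases and all 6 NRF2 targets are higher there.

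**Figure D2:**
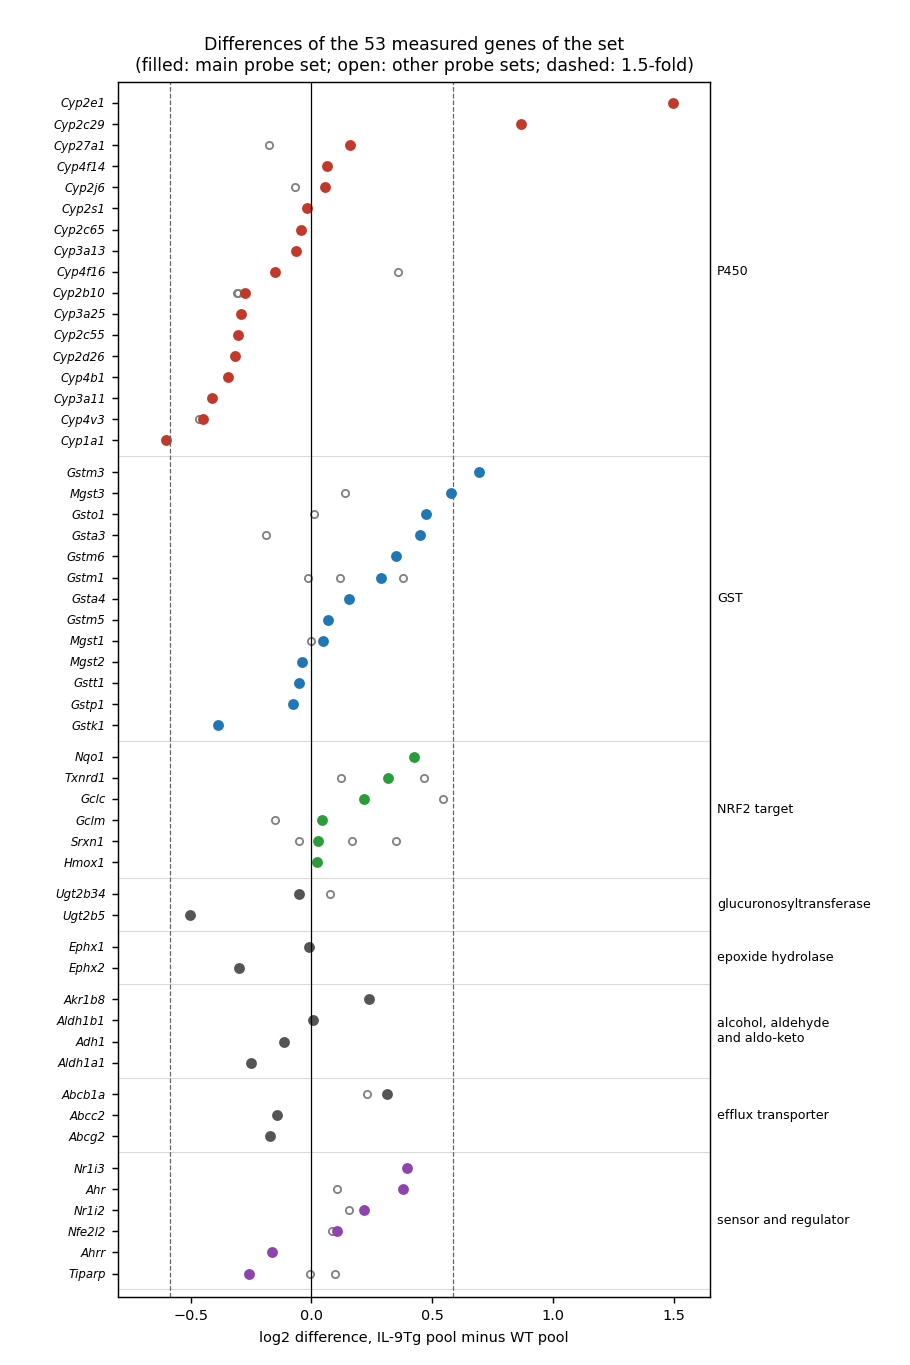
Log2 difference, IL-9Tg pool minus WT pool, of the 53 measured genes by role. Filled points are the main probe sets, open points the other probe sets of the same gene, and dashed lines mark 1.5-fold; Cyp2e1, Cyp2c29 and Gstm3 lie to the right of the upper line and Cyp1a1 to the left of the lower line.

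Among the cytochromes P450, 12 of 17 lay below 0 in the IL-9Tg pool (70.6%, where 47.7% of all genes past the filter did) and 5 lay above 0. Lower values by at least the technical SD of 0.23 were found in 8 of 17, while 13.9% of all genes past the filter were that much lower. Cyp1a1, which oxidises polycyclic aromatic compounds and is the classic target of AhR, was the lowest of the 53, at 1053 in the IL-9Tg pool against 1600.2 in the WT pool, a difference of -0.60. It has 1 probe set, which can match more than 1 transcript of the gene. Its promoter is shown because it holds the letters GCGTG, the core to which AhR and its partner bind, which are given in capitals and begin 54 bases before the start of transcription.
Cyp1a1, chr9:57697541-57697581 (GRCm38.p6, + strand): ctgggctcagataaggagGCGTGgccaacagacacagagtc

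The CYP3A enzymes carry out much of the oxidation of drugs in gut and liver and are induced through PXR. Cyp3a11 read 9846 in the IL-9Tg pool and 13101 in the WT pool, a difference of -0.41. Cyp3a25, next to Cyp3a11 in the gene order, read 5854 in the IL-9Tg pool and 7173 in the WT pool, a difference of -0.29. Cyp3a13, a further CYP3A gene, read 4324 and 4519.6, a difference of -0.06 that is under the technical SD. All 3 genes of this subfamily were therefore on the lower side in the IL-9Tg pool, by differences under 1.5-fold.

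Cyp2b10, the P450 most closely tied to CAR, was measured by 3 probe sets, and these lay within a narrow range. The main one read 4017 in the IL-9Tg pool and 4862 in the WT pool, a difference of -0.28, and the other probe sets gave -0.31 and -0.30. Cyp4v3, a fatty acid hydroxylase, had 2 probe sets with the same direction: 6707 in the IL-9Tg pool against 9155 in the WT pool, a difference of -0.45, and 5049 against 6964, a difference of -0.46. These were the P450s in which several probe sets past the filter all gave a lower value in the IL-9Tg pool. For Cyp2j6 and Cyp4f16 the probe sets lay on both sides of 0, from -0.07 to 0.06 and from -0.15 to 0.36, so no direction is given.

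Lower values past the technical SD were also found in Cyp4b1, which oxidises fatty acids and some aromatic compounds, at 1756 in the IL-9Tg pool and 2235 in the WT pool (-0.35), and in Cyp2d26, at 5041 and 6282 (-0.32). Differences under the technical SD were found in Cyp2s1, a P450 of epithelia (972 in the IL-9Tg pool, 984 in the WT pool), Cyp4f14, a leukotriene hydroxylase (6924 and 6612, a difference of 0.07), and Cyp27a1, the mitochondrial sterol hydroxylase of bile acid synthesis (1457 and 1305, a difference of 0.16). These 3 genes thus read nearly alike in both pools.

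The CYP2C genes, whose enzymes oxidise drugs and arachidonic acid, did not share a direction. Cyp2c29 read 733 in the IL-9Tg pool and 401 in the WT pool, 1.83-fold higher, a difference of 0.87 from 1 probe set. Its neighbours on chromosome 19 read lower or alike: Cyp2c55 had 421 in the IL-9Tg pool against 521 in the WT pool, a difference of -0.31, and Cyp2c65 had 3761 against 3872, a difference of -0.04. In the order of protein-coding genes Cyp2c55 and Cyp2c65 are adjacent, and 1 gene lies between Cyp2c65 and Cyp2c29. CYP2C genes are close paralogs, so signal shared between their probe sets cannot be separated here.

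Cyp2e1, which oxidises ethanol and small solvents, had the largest difference of the 53 genes and was dim. It read 106 in the IL-9Tg pool and 37.0 in the WT pool, 2.83-fold higher. The wild-type value lay under the intensity of 78.5 that corresponds to the filter, so the gene reaches that level through the IL-9Tg pool alone, and its only probe set offers no check. Cyp2e1 is abundant in liver and present in fat. All 8 measured adipocyte markers lay above 0 (51.2% of all genes past the filter did), and 6 of the 8 were past the filter. Their summed intensity was 2416 in the IL-9Tg pool and 1714 in the WT pool. Adipoq, the adipocyte hormone adiponectin, read 91.9 in the IL-9Tg pool and 14.3 in the WT pool, and like Cyp2e1 was not past the filter. Lep, also not past it, read 14.9 and 14.5. Of 11 measured hepatocyte markers 6 lay above 0 and 5 below, and 4 of the 11 were past the filter. Their summed intensity was 5513 in the IL-9Tg pool and 4322 in the WT pool. Most of that sum was Cps1, at 4659 in the IL-9Tg pool and 3603 in the WT pool, so the sum mainly follows this 1 gene. Apoh read 233 in the IL-9Tg pool and 98.6 in the WT pool, 2.35-fold higher, and was the 1 marker of this list past the filter and 1.5-fold. Albumin (Alb) read 75.3 and 63.6, below the filter. No marker is at 0 on an array without detection calls, and the part of either tissue in the Cyp2e1 value was not tested.

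The last 100 bases before the start of transcription are shown for the P450s with the largest higher values, Cyp2e1 and Cyp2c29. Neither contains the AhR core GCGTG or the NRF2 core TGACNNNGC on either strand.
Cyp2e1, chr7:140763719-140763818 (GRCm38.p6, + strand): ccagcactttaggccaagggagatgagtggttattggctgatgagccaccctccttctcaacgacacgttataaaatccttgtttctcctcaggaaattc
Cyp2c29, chr19:39286985-39287084 (GRCm38.p6, + strand): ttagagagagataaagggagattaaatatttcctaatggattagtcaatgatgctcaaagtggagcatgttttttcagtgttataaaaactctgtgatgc

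The median over the enterocyte markers was on the lower side, as was that of the P450s, by a smaller difference that is under the technical SD. By main probe set, single markers ran from -0.37 (Cdx2) to 0.27 (Slc5a1). The other probe sets of these genes had opposite signs, with 0.32 for Cdx2 and -0.12 for Slc5a1. Apoa1 gave the highest value on each array, and compression of signal near the top of the scale was not tested. Of 9 measured, 6 lay below 0 (47.7% of all genes past the filter did), and the median was -0.09. The summed intensity of these markers was 107581 in the IL-9Tg pool and 112113 in the WT pool. The P450s summed to 57648 in the IL-9Tg pool and 67587 in the WT pool. In bulk tissue, fewer cells of a type and less RNA per cell cannot be told apart, and the part of enterocyte content in the P450 values was not tested.

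Glutathione transferases join glutathione to electrophiles. In this family 9 of 13 lay above 0 in the IL-9Tg pool (69.2%, where 51.2% of all genes past the filter did) and 4 lay below. Higher values by at least 0.23 were found in 6 of 13, while 14.8% of all genes past the filter were that much higher, and 1 of 13, Gstk1, was that much lower. Markers of other cell types also differed between the pools. All 6 tuft cell markers lay above 0, with a median of 1.88 and a summed intensity of 1780 in the IL-9Tg pool and 552 in the WT pool. Of 8 goblet cell markers 5 lay above 0, with a median of 0.38 and a sum of 76449 in the IL-9Tg pool and 71094 in the WT pool. All 6 measured B cell markers lay below 0, between -1.73 and -0.12, with a sum of 642 in the IL-9Tg pool and 1197 in the WT pool. The part of these cell types in the values of the transferases and NRF2 targets was not tested.

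The 4 mu class genes of the set lie in 1 cluster on chromosome 3, and read higher in the IL-9Tg pool to different degrees. Gstm3 read 2417 in the IL-9Tg pool and 1495 in the WT pool, 1.62-fold higher, and its probe sets both gave 0.69. Gstm6, adjacent to Gstm3, read 1227 in the IL-9Tg pool and 961 in the WT pool, a difference of 0.35. Gstm1, the major mu class enzyme, read 3268 and 2674, a difference of 0.29. The other probe sets of Gstm1 ranged from -0.02 to 0.38, so the size of its difference depends on the probe set. Gstm5 read 698 in the IL-9Tg pool and 666 in the WT pool, a difference of 0.07 under the technical SD. Outside the set, Gstm2, Gstm4 and Gstm7, chosen after their values were seen, differed by 0.21, 0.01 and -0.18, and the other probe set of Gstm7 gave 0.08. Mu class transcripts are similar in sequence, and cross-hybridisation between their probe sets was not tested.

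Of the other soluble transferases, Gsto1, the omega class enzyme that also reduces dehydroascorbate, read 8185 in the IL-9Tg pool and 5889.7 in the WT pool, a difference of 0.47. Its other probe set, which can match other transcripts, gave 0.01. Gsta3, an alpha class enzyme, read 128 in the IL-9Tg pool and 93.1 in the WT pool, a difference of 0.45, and a second dim probe set gave -0.19. The probe sets of these genes thus gave unequal sizes, and for Gsta3 opposite signs. Gsta4, which clears the lipid peroxidation product hydroxynonenal, read 863 in the IL-9Tg pool and 775 in the WT pool (0.15). Gstp1, the pi class enzyme, read 13321 and 14032.5 (-0.08) and Gstt1, of the theta class, 1610.7 and 1670.1 (-0.05). Gstk1, the kappa class enzyme of mitochondria and peroxisomes, was the exception on the lower side, at 1427 in the IL-9Tg pool against 1866 in the WT pool, a difference of -0.39.

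The membrane-bound transferases differed among themselves. Mgst3, which also reduces lipid peroxides, read 5724 in the IL-9Tg pool and 3835 in the WT pool, a difference of 0.58, or 1.49-fold, just under the 1.5-fold threshold. A dimmer probe set of Mgst3 gave 0.14. Mgst1 read 6012 in the IL-9Tg pool and 5815 in the WT pool (0.05), and Mgst2, which can form leukotriene C, read 2846 and 2922 (-0.04). Mgst3 was therefore the member of this class with a difference above the technical SD.

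The main probe sets of the 6 NRF2 targets all lay above 0 (51.2% of all genes past the filter did), by small amounts. For Gclm and Srxn1 the probe sets lay on both sides of 0, so no direction is given, and Hmox1 was not past the filter. Nqo1, the quinone reductase, read 524 in the IL-9Tg pool and 390.1 in the WT pool, a difference of 0.42 from its 1 probe set. Txnrd1, the cytosolic thioredoxin reductase, read 2964 in the IL-9Tg pool and 2377 in the WT pool, a difference of 0.32, and its 3 probe sets ranged from 0.12 to 0.47. These were the targets whose main probe set differed by more than the technical SD.

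Glutathione synthesis depends on glutamate-cysteine ligase, and its catalytic subunit Gclc read 1437 in the IL-9Tg pool and 1236 in the WT pool, a difference of 0.22, with 0.55 in its other probe set. The modifier subunit Gclm read 1865 in the IL-9Tg pool and 1811 in the WT pool, a difference of 0.04, with -0.15 in its other probe set. The subunits of this enzyme thus did not differ by the same amount. Srxn1, sulfiredoxin, read 1755 in the IL-9Tg pool and 1723 in the WT pool (0.03), and its 4 probe sets spread from -0.05 to 0.35. Hmox1, heme oxygenase, read 78.4 and 77.04, just under the filter, a difference of 0.02. The main probe sets of Gclm, Srxn1 and Hmox1 thus differed by less than the technical SD, while the highest probe set of Srxn1 was above it.

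The core of the antioxidant response element, the DNA sequence bound by NRF2, was searched as TGACNNNGC on both strands, from 250 bases before to 50 bases after each start of transcription. The promoter table held 50 of the 55 genes. A match stood in at least 1 promoter of 3 of the 4 NRF2 targets found there (Gclm, Srxn1 and Txnrd1), of 3 of 12 glutathione transferases and of 3 of 17 P450s. Over all 27025 genes of the table the share was 14.0%, and over all 32851 promoters it was 12.4%. The AhR core GCGTG was in a promoter of 5 of 17 P450s, 4 of 12 glutathione transferases and 3 of 4 NRF2 targets, the same count as for the antioxidant element, and of 35.2% of all genes (32.4% of all promoters). A match describes the letters in this window and shows no binding.

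Windows around the antioxidant element core are shown for the glutathione transferases and NRF2 targets that hold it before the start of transcription, with the match in capitals as it reads on the strand of the gene. In Gclm, Mgst1 and Txnrd1 the match is on the opposite strand, so its reverse complement is in capitals. In Gstm5 its last letters overlap a match of the AhR core on the opposite strand.
Gsta3, chr1:21240448-21240488 (GRCm38.p6, + strand): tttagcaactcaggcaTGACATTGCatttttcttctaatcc
Gstm5, chr3:107895796-107895836 (GRCm38.p6, + strand): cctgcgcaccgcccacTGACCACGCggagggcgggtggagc
Mgst1, chr6:138140455-138140495 (GRCm38.p6, + strand): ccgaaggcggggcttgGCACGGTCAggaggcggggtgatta
Gclm, chr3:122245407-122245447 (GRCm38.p6, + strand): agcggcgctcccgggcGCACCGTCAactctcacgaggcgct
Txnrd1, chr10:82859098-82859138 (GRCm38.p6, + strand): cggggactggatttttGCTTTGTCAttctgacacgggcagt

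The genes with these windows did not share a size of difference: Gsta3 differed by 0.45 and Txnrd1 by 0.32, and Gstm5, Mgst1 and Gclm by 0.07, 0.05 and 0.04. Gstm3, with the largest difference of the glutathione transferases, and Nqo1 had no match in their windows. The last 100 bases before the start of Gstm3 are shown for comparison.
Gstm3, chr3:107969175-107969274 (GRCm38.p6, - strand): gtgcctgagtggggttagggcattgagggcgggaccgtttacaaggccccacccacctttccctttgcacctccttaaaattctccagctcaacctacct

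**Figure D3:**
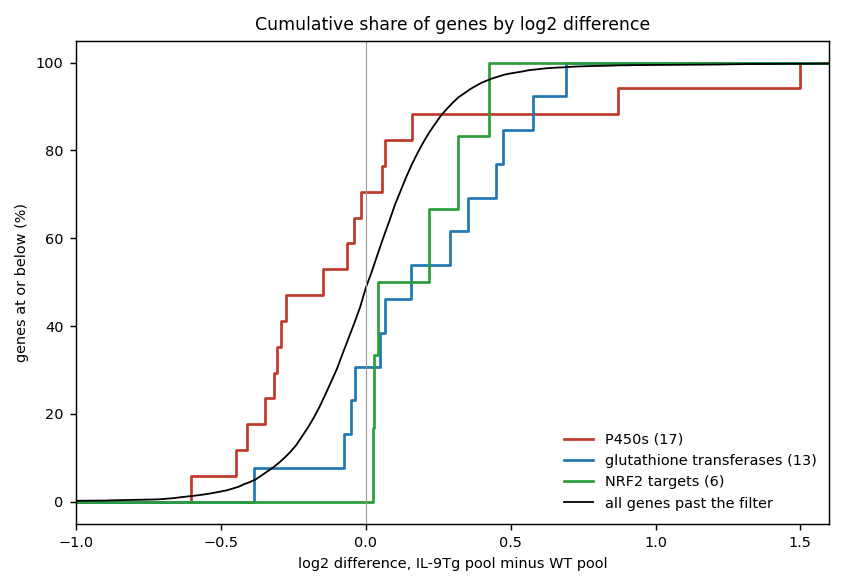
Share of genes (%) at or below each log2 difference, IL-9Tg pool minus WT pool, for the 17 P450s, the 13 glutathione transferases, the 6 NRF2 targets and the 11627 genes past the filter. At 0 the P450 line stands at 70.6%, the glutathione transferase line at 30.8% and the NRF2 target line at 0%, and at the right Cyp2c29 and Cyp2e1 keep the P450 line below the line of all genes.

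**Figure D4:**
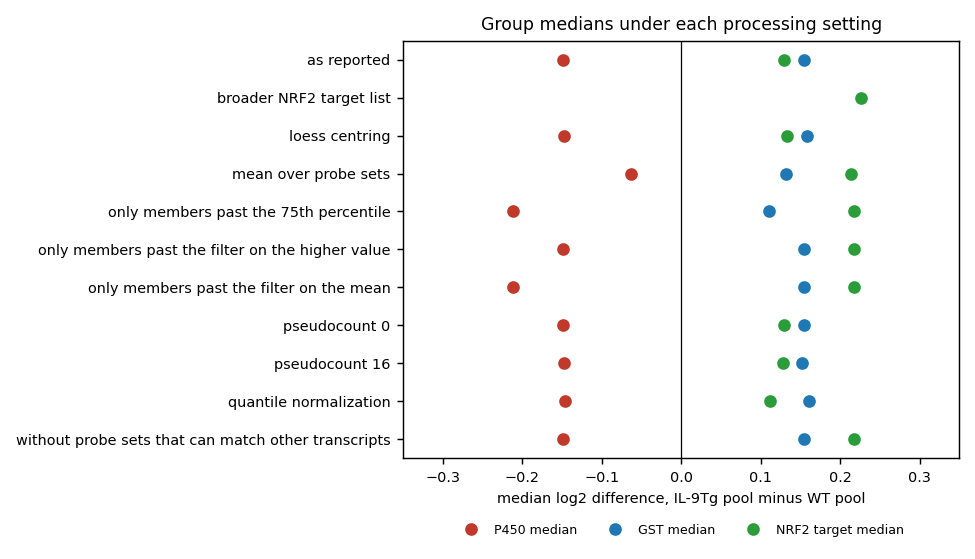
Median log2 difference, IL-9Tg pool minus WT pool, of the P450s, the glutathione transferases and the NRF2 targets under each processing setting, with 1 point for each median. P450 medians lie between -0.21 and -0.06, and those of the glutathione transferases and NRF2 targets between 0.11 and 0.23.

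The other conjugating and oxidising enzymes were lower or alike in the IL-9Tg pool. Ugt2b5, a glucuronosyltransferase, read 812 in the IL-9Tg pool and 1153 in the WT pool, a difference of -0.51 from 1 probe set, while Ugt2b34 read 6678 and 6927 (-0.05), with 0.08 in its other probe set. Ephx2, the soluble epoxide hydrolase that opens fatty acid epoxides, read 3544 in the IL-9Tg pool and 4363 in the WT pool, a difference of -0.30. Its microsomal counterpart Ephx1, which acts on epoxides of foreign compounds, read 412 and 415 (-0.01). Each of these pairs thus held 1 gene with a difference above the technical SD.

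Aldh1a1, the retinaldehyde dehydrogenase, read 6290 in the IL-9Tg pool and 7480 in the WT pool, a difference of -0.25, and Adh1, an alcohol dehydrogenase, read 12381 and 13411 (-0.12). Aldh1b1, a mitochondrial aldehyde dehydrogenase, read 2759 in the IL-9Tg pool and 2744 in the WT pool (0.01). The aldo-keto reductase Akr1b8 was on the other side, at 222 in the IL-9Tg pool and 188 in the WT pool, a difference of 0.24. These enzymes of alcohols and aldehydes therefore split evenly around 0.

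Among the efflux pumps of the apical membrane, Abcb1a, the P-glycoprotein, read 2189 in the IL-9Tg pool and 1763 in the WT pool, a difference of 0.31, and its other probe set gave 0.23. Abcg2, the breast cancer resistance protein pump, read 2073 in the IL-9Tg pool and 2335 in the WT pool (-0.17), and Abcc2, which exports glutathione and glucuronide conjugates, read 430 and 475 (-0.14). Abcb1a was the pump with a difference above the technical SD.

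The sensors lay above 0, while their P450 targets lay on both sides. CAR (Nr1i3) read 641 in the IL-9Tg pool and 487 in the WT pool, a difference of 0.40 from 1 probe set, and PXR (Nr1i2) read 318 and 274, a difference of 0.22, with 0.16 in its other probe set. Ahr read 583 in the IL-9Tg pool and 448 in the WT pool, a difference of 0.38, with 0.11 in its other probe set. The main probe sets of all 3 receptors thus read higher in the IL-9Tg pool, by 0.22 to 0.40, with that of PXR under the technical SD. Of their targets, Cyp3a11, Cyp2b10 and Cyp1a1 read lower, and Cyp2c29, a target of PXR and CAR, read higher (0.87). Tiparp and Ahrr, which AhR induces and which restrain it in turn, read 455 in the IL-9Tg pool against 545 in the WT pool (-0.26) and 99.5 against 112 (-0.16). The other probe sets of Tiparp gave -0.0049 and 0.10, so its direction is uncertain. Nfe2l2, the gene of NRF2 itself, read 3889 in the IL-9Tg pool and 3617 in the WT pool, a difference of 0.10, with 0.09 in its other probe set.

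Grouped by the receptor that controls them, 6 of 9 measured PXR and CAR targets lay below 0 (47.7% of all genes past the filter did). Their median was -0.14, with Cyp2c29 as the highest. Of 6 AhR targets 4 lay below 0, with a median of -0.21. These 4 include Tiparp, of uncertain direction, and Ahrr, whose difference was under the technical SD. Nqo1, which both AhR and NRF2 induce, was the highest of the AhR list. A further mixed list held receptor partners such as Rxra and Arnt, other nuclear receptors, and genes of P450 electron supply such as Cyb5a (0.12). Of its 9 measured genes 7 lay below 0, 0 were past 1.5-fold, and the median was -0.14. Of 7 NRF2 regulators, among them Keap1 and the small MAF partners, 5 lay below 0 and 0 were past 1.5-fold, with a median of -0.15. These counts use main probe sets, and some genes had probe sets on both sides of 0. Keap1 gave -0.36 and 0.43, Rxra -0.34 and 0.15, and Arnt ranged from -0.30 to 0.24, so no direction is given for these genes. The share of 47.7% below 0 applies to each of these lists, and the lists are short.

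Further genes of the same families, not part of the 55, leaned in the same directions where they passed the filter. Of 12 other P450 genes of families 1 to 4 past the filter, 11 lay below 0 (47.7% of all genes past the filter did) and 1 above, the median was -0.23, and 0 were past 1.5-fold. Over all 38 measured, dim ones included, 21 lay below 0 and 16 above, and the median was -0.03. Among 8 other glutathione transferases past the filter there were 7 above 0 (51.2% of all genes past the filter were) and 1 below, with a median of 0.13, and 0 were past 1.5-fold. Over all 10 measured, 7 lay above 0 and 3 below, and the median was 0.05. The 3 other glucuronosyltransferases past the filter all lay below 0, with a median of -0.36, and over all 8 measured 6 lay below 0, with a median of -0.17. Aldehyde dehydrogenases (15 genes, median -0.03), sulfotransferases (5 genes, -0.02) and ABC transporters of families B, C and G (18 genes, 0.04) had medians near 0, with members on both sides, from -0.35 to 0.56, from -0.16 to 0.43 and from -0.29 to 0.52 in that order. Of 9 aldo-keto reductases, with a median of -0.04, Akr1c14, which reduces steroids, was past 1.5-fold, at 343 in the IL-9Tg pool against 545 in the WT pool (-0.66). Paralogs share probes to an unknown extent, so these genes are not independent of the 55.

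**Figure D5:**
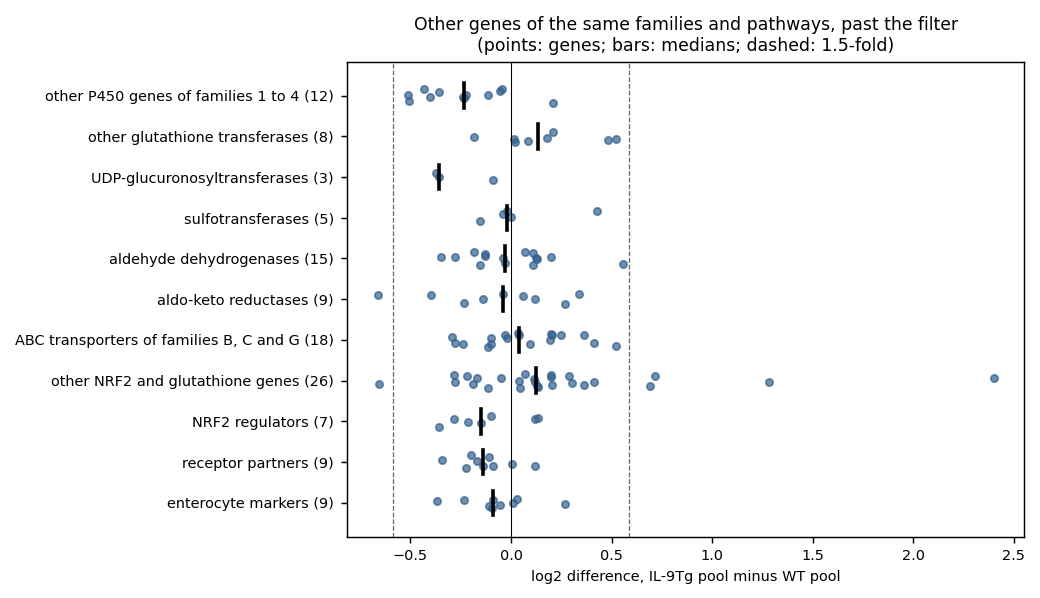
Log2 difference, IL-9Tg pool minus WT pool, of other genes of the same families and pathways past the filter, with 1 point for each gene, a bar at the median of each list and dashed lines at 1.5-fold. The medians lie at -0.23 for the other P450s and 0.13 for the other glutathione transferases, and the points furthest to the right are Me1 and Gpx2.

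Some further NRF2 and glutathione genes differed by more than the 6 targets above, while the medians were alike. Of 28 measured, 20 lay above 0 (51.2% of all genes past the filter did), with a median of 0.12. At least 1.5-fold higher were 4, where 1.23% of all genes were, and 1 was at least 1.5-fold lower, where 1.07% were. Gpx2, the glutathione peroxidase of the gut epithelium, read 11857.5 in the IL-9Tg pool and 4874 in the WT pool, 2.43-fold higher from 1 probe set. Gsr, the reductase that regenerates glutathione, read 1195 in the IL-9Tg pool and 741 in the WT pool, a difference of 0.69, with 1.62 in its other probe set past the filter. Gpx2 and Gsr were thus higher in the IL-9Tg pool by more than the main probe set of any of the 6 NRF2 targets. They were named because they were past 1.5-fold. Of the same list Gpx1, Gpx4 and Gss, chosen after their values were seen, differed by 0.20, 0.11 and 0.04, under the technical SD.

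Me1, the malic enzyme that supplies NADPH, read 2016 in the IL-9Tg pool and 382 in the WT pool, 5.27-fold higher, and the carbonyl reductase Cbr3 read 128 and 77.7, 1.64-fold higher. Ptgr1, which reduces unsaturated aldehydes and prostaglandins, lay on the other side, at 6066 in the IL-9Tg pool and 9565.5 in the WT pool, a difference of -0.66. This list was drawn up broadly, and some of its genes, Me1 and Gpx2 among them, have regulators other than NRF2.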

How the data were processed

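The deposited values were intensities of 45101 probe sets on a linear scale. RMA, which corrects background, equalises the distributions of arrays and summarises probes, is named without a version in the submitters' processing notes. The chip annotation used by the authors is not given in the sources used here. Per the labels, 10 µg of total RNA from each pool was labelled with biotin. Gene names came from a platform annotation table: 34958 probe sets had 1 symbol, 932 several and 9211 none, and 34754 had an Entrez identifier in the RefSeq table of GRCm38.p6. Only probe sets with 1 symbol were used. A pseudocount of 1 was added before log2, and 418 genes had equal values on both arrays. A level is described as 1.5-fold or 2-fold apart by size alone, since 1 array a group allows no test. Named were all 55 genes, genes of the wider lists past the filter and 1.5-fold, and markers beside results. Some other genes of the wider lists were named as examples or for comparison. The genes and lists were chosen with earlier results of these data known. The motif letters were matched in RefSeq promoters of GRCm38.p6, and neighbours were taken from the RefSeq gene order. The procedure was tested on simulated data. Python 3.11.15, pandas 2.3.3 and statsmodels 0.14.6 were used.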

Additional observations from a re-analysis of the deposited data

How the results depend on the processing

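All 10 alternatives were set against the values as reported. The P450 median lay between -0.21 and -0.06, the glutathione transferase median between 0.11 and 0.16 and the NRF2 target median between 0.11 and 0.23, so their signs were the same under every alternative run. The P450 median minus the glutathione transferase median ranged from -0.37 to -0.20, and minus the NRF2 target median from -0.43 to -0.26. When only genes past the filter on the mean, or past the 75th percentile, were kept, Cyp2e1 was left out. The count at least 1.5-fold higher was then 2 in place of 3, and the count at least 2-fold higher 0 in place of 1. The count at least 1.5-fold lower was 0 in place of 1 when probe sets open to other transcripts were left out, because Cyp1a1 has no other. Single genes have values under 9 of the alternatives, some of which leave genes out: 40 of the 53 had a value under all 9, and 34 of these kept 1 sign. Over the settings in which each gene had a value, 47 of the 53 kept 1 sign, and Cyp2j6, Cyp4f16, Cyp27a1, Mgst1, Gclm and Ugt2b34 reached 0 or the other sign under at least 1. With a pseudocount of 16 the difference of Cyp2e1 was 1.21, and with the mean over probe sets those of Gsta3, Gsto1 and Cyp4f16 were 0.13, 0.24 and 0.10. Without probe sets open to other transcripts, the difference of Srxn1 was 0.35 in place of 0.03 and that of Tiparp -0.0049 in place of -0.26.

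No paired analysis was possible because each group is 1 pool on 1 array. RMA sets the distributions of the arrays equal, so a shift shared by most genes cannot be seen. The number of arrays limits the precision.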
